A study of Homo sapiens and Mus musculus with 22 samples.

Results

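The immune checkpoint ligands examined here were 7 genes chosen by name: CD274 (PD-L1), PDCD1LG2 (PD-L2), CD276 (B7-H3), CD47, PVR (CD155), LGALS9 (galectin-9) and IDO1, an enzyme that is usually grouped with them. All 7 symbols were present among the 25435 genes of the H69 table, the 20113 genes of the H69EZ table and, as mouse genes, the 24047 genes of the mouse table. Enough reads for testing were found for 7, 7 and 5 of them, against 15445, 14819 and 14032 genes tested in all. Mouse Pdcd1lg2 and Ido1 were too low to test.

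Tumour cells can restrain T cells, natural killer cells and macrophages through such genes. PD-L1 and PD-L2 bind PD-1 on T cells, PVR binds TIGIT, CD96 and CD226, galectin-9 is a ligand of TIM-3, CD47 signals through SIRPA on macrophages to block phagocytosis, and IDO1 depletes tryptophan and makes kynurenine. CD274 and IDO1 are known targets of interferon gamma, which acts through JAK kinases and IRF1. Small cell lung cancer (SCLC) is a neuroendocrine tumour that is known for low surface MHC class I, the molecules that present peptides to CD8+ T cells.

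RNA was sequenced in 22 libraries of 8 groups of cultured SCLC lines, with 3 libraries a group in the H69 and mouse tables and 2 in the H69EZ table. H69 is the parental human line and is labelled MHC class I low or negative; H69M, a line derived from it, is labelled high. From H69M, sorting gave a PD-L1 low or negative fraction (labelled MHC class I low or negative) and a PD-L1 high fraction (labelled high). H69EZ is an adherent line obtained from H69 after an EZH2 inhibitor had been given for 6 days and withdrawn; its HLA-ABC low or negative and HLA-ABC high fractions were sorted. The mouse line RPP is labelled low or negative, and RPP-A, selected from it for adherent growth, is labelled high. No genotype is given here for any line, and the labels do not say whether a derived line is a clone. Nothing in the labels says that libraries came from separate cultures, so p-values measure the spread between libraries, which may be technical. In the H69EZ table, with 2 libraries a group, that spread was pooled across genes. Its very small p-values therefore rest on the pooled spread and do not measure that of the single gene.

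Total counts ran from 10817795 to 52458228 reads a library. In the mouse table the RPP library EHK_RPP4 and the RPP-A library RPPM3 stood apart: the chi-square per degree of freedom between them and their group mates was 28.1 to 37.2, against 1.33 and 3.42 for the other pairs of that table. The mouse values of the members tested are therefore also given without them, whereas list counts are not. RPP-A is then left with RPPM1 and RPPM2, the pair at 1.33, which is close to what counting alone would give. The labels do not say whether these are technical repeats, so the reduced values may rest on a single RPP-A sample. In the H69EZ table the chi-square per degree of freedom was 10.5 for the HLA high pair and 2.57 for the HLA low pair. Neuroendocrine markers, 8 genes that define the tumour type, summed to 2859 to 3036 CPM (counts per 1000000 reads) in H69, 2812 to 2889 in H69M, 4029 to 4259 in the PD-L1 low fraction and 1100 to 1156 in the PD-L1 high fraction. They summed to 1940 to 1958 and 558 to 580 CPM in the HLA low and high fractions, and to 2352 to 2901 and 151 to 191 CPM in RPP and RPP-A. All values are of RNA in bulk libraries, in which fewer cells that express a gene and less RNA per cell cannot be told apart. CPM values were scaled by trimmed mean of M-values (TMM) factors, and calls are at an adjusted p under 0.05 by edgeR's quasi-likelihood test over all genes tested.

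In H69M, RNA of 6 of the 7 checkpoint genes was higher than in H69 and that of PVR was lower. All 7 were called, where 72.5% of all genes tested were called, 35.9% higher and 36.6% lower. The median log2 fold change of the 7 was 4.82, against -0.01 over all genes tested. Between the PD-L1 fractions CD274 only checks the sort and was left out. Of the other 6, 5 had more RNA in PD-L1 high cells and CD47 less, with a median of 4.02 against 0.00, where 78.3% of genes were called, 39.0% higher and 39.4% lower. Between the HLA fractions of H69EZ all 7 were higher in the HLA high fraction, with a median of 2.53 against 0.00, where 81.3% of genes were called, 41.1% higher and 40.2% lower. In the mouse pair, Cd47, Pvr and Lgals9 were higher in RPP-A, Cd274 was lower and Cd276 was not called. There 78.2% of genes were called, 37.6% higher and 40.6% lower, and the medians were 0.96 and -0.04. With so many genes called in each comparison, the number of checkpoint genes called is not a result about them by itself, and their direction and size are described gene by gene. In the H69 table CD274, PDCD1LG2, IDO1 and LGALS9 passed the filter on low counts only through H69M and the PD-L1 high fraction, and in the H69EZ table PDCD1LG2 and IDO1 only through the HLA high fraction, so they had to differ from the empty or nearly empty groups. Their fold changes between a group that carried them past the filter and such a low group are descriptions, printed without a p. The counts and medians above that include them support nothing. P-values are printed for them only between the low groups PD-L1 low and H69, and in the contrast of the PD-L1 sort with H69M minus H69. Those values rest on the same nearly empty groups and are descriptions too. Of the members that passed in both groups of a pair, CD276 and CD47 were higher and PVR lower in H69M, CD276 and PVR were higher and CD47 lower in PD-L1 high cells, and CD274, CD276, CD47, PVR and LGALS9 were higher in HLA high cells.

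**Figure D1:**
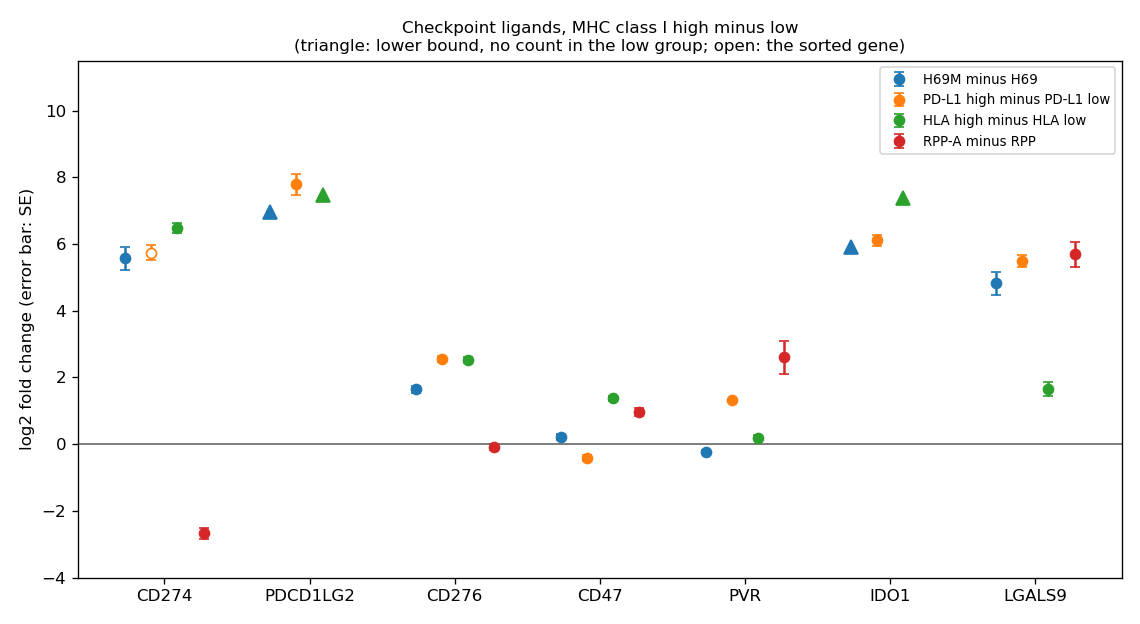
Log2 fold change of each checkpoint gene in the 4 comparisons of an MHC class I high with a low group; bars are standard errors, triangles are lower bounds where the low group had no count, and the open point is the sorted gene. Human CD274 lies between 5.57 and 6.49 and mouse Cd274 at -2.67, whereas LGALS9 is above 0 in all 4 comparisons.

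The stretch of DNA before the start of a gene is where interferon and NF-kB factors are known to act. It is shown for CD274 and LGALS9, which differed widely between H69M and H69 (log2 fold change 5.57 and 4.82). It is also shown for PVR, which differed little there (-0.23) but by 1.31 across the PD-L1 sort. Of the 7 genes, 5 matched the RefSeq promoter table (build GRCh38.p14), with 6 starts, and the 250 bases before each start were searched on both strands. The motifs were the IRF core AANNGAAA, found in 20.3% of 35114 promoters of the same length, the STAT site TTCNNNGAA, found in 6.57%, and the NF-kB site, found in 9.96%. CD274 held 4 matches to the IRF core, at 208, 202, 196 and 145 bases before the start, of which the 3 farthest overlap their neighbours, and 1 STAT site at 125 bases, whose pattern matches on both strands at the same place. LGALS9 held 1 IRF core, 9 bases before the start. The NF-kB site was matched once, at 68 bases before the other start of CD276. Neither window of CD276, which was also higher in H69M, PD-L1 high and HLA high cells, held an IRF core or STAT site. These letters were not matched in the windows of CD47 and PVR. PDCD1LG2 and IDO1 were not matched to the table. A match is a description of letters and not a measured binding site. The 250 bases before CD274 (chr9:5450292-5450541, + strand), LGALS9 (chr17:27630938-27631187, + strand) and PVR (chr19:44643660-44643909, + strand) read as follows, 5′ to 3′, with matches in capitals.
CD274: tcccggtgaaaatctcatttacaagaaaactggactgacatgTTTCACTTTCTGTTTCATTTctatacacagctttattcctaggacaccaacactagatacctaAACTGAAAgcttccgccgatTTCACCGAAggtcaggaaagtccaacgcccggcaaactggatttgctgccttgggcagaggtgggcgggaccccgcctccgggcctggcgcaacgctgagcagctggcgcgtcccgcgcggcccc
LGALS9: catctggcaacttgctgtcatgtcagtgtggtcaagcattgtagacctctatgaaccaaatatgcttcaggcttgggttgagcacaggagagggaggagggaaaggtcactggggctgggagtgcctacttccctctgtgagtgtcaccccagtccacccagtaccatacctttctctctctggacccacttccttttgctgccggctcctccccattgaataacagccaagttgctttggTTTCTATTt
PVR: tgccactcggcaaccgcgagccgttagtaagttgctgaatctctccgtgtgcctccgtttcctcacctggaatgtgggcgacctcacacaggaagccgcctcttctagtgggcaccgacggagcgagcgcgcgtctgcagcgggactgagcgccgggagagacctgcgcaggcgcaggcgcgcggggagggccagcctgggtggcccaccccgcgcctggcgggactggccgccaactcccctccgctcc

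CD274, which encodes PD-L1, was nearly silent in H69, with 1, 3 and 1 reads in the 3 libraries (0.0402, 0.113 and 0.0807 CPM). H69M had 4.85, 3.73 and 3.48 CPM. Every H69M library was far above every H69 library, with a log2 fold change of 5.57 ± 0.33 (SE). The ratio of the pooled counts was 51.0-fold, with a 95% interval from counting of 21.6 to 158, which covers counting error only. As a check of the sort, the PD-L1 low fraction had 0.222, 0.140 and 0.434 CPM and the PD-L1 high fraction 12.9, 13.4 and 13.7 CPM. RNA of the sorted protein thus followed the sort, and the low fraction held 1.99% of the level of the high fraction.

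The HLA sort of H69EZ did not use PD-L1, and CD274 differed there as well. HLA low libraries had 0.336 and 0.394 CPM, and HLA high libraries 32.2 and 33.5 CPM. No values overlapped, and the log2 fold change was 6.49 ± 0.15 (SE), past the threshold in edgeR's quasi-likelihood test. Mouse Cd274 went the other way. RPP, the line labelled MHC class I low, had 31.5, 32.3 and 30.6 CPM, and RPP-A had 6.16, 4.59 and 4.12 CPM. Cd274 fell by 2.67 ± 0.17 on the log2 scale in RPP-A (adjusted p = 3.21e-06), with no overlap, and by 2.53 without EHK_RPP4 and RPPM3. The difference in direction between the human and mouse pairs was not tested, since the tables were counted and fitted separately.

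PDCD1LG2, the other ligand of PD-1, had no read in any H69 library. H69M had 6.56, 5.42 and 5.70 CPM, at least 125-fold higher against a floor of 3 counts over the H69 group. In the PD-L1 low fraction only the third replicate had any reads, 5 of them (0.361 CPM), and the PD-L1 high fraction had 21.0, 21.8 and 18.6 CPM. The fractions did not overlap, and PDCD1LG2 was higher in the PD-L1 high fraction by a log2 fold change of 7.79 ± 0.31. That size rests on the single low library with reads: without it the fitted log2 fold change was 11.75, which depends on the prior count because the low group is then at 0. HLA low libraries had no read and HLA high libraries 5.53 and 5.94 CPM, at least 178-fold higher. Mouse Pdcd1lg2 was close to the limit of detection in both lines, with 5, 1 and 0 reads in RPP, the 5 of them in EHK_RPP4, and none in RPP-A.

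The balance of the PD-1 ligands was not alike in the derived lines. Counts of PDCD1LG2 per count of CD274 were 1.35, 1.45 and 1.64 in H69M and 1.63, 1.64 and 1.35 in the PD-L1 high fraction, whereas the HLA high fraction of H69EZ gave 0.172 and 0.177. CD274 was the higher of the pair in H69EZ and the lower in H69M, in every library. The difference between the tables was not tested, and gene length cancels when the same ratio is compared between groups.

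CD276, a B7 family molecule for which no receptor is firmly settled, was expressed in every group. H69 had 4.95, 4.87 and 6.13 CPM, and H69M had 15.1, 17.3 and 16.5 CPM. All H69M libraries were above all H69 libraries, by a log2 fold change of 1.65 ± 0.11 (adjusted p = 3.15e-11). The PD-L1 low fraction had 10.8, 9.44 and 7.95 CPM and the PD-L1 high fraction 55.7, 57.9 and 55.9 CPM, a log2 fold change of 2.57 ± 0.09 (adjusted p = 7.14e-16) with no overlap. HLA low libraries had 8.70 and 8.07 CPM, against 50.2 and 46.6 CPM in HLA high libraries. CD276 was higher there by 2.53 ± 0.09 on the log2 scale (adjusted p = 4.78e-187 in edgeR's quasi-likelihood test, with the spread pooled across genes). Mouse Cd276 lay at 69.1, 70.3 and 62.8 CPM in RPP and at 61.7, 61.7 and 66.1 CPM in RPP-A. The mouse groups overlapped and Cd276 was not called (log2 fold change -0.09 ± 0.09, adjusted p = 0.345), nor was it without EHK_RPP4 and RPPM3 (-0.072); with library totals in place of TMM factors it was called lower, at -0.46 (adjusted p = 0.00147), a scaling that moved the median of all mouse genes to -0.40.

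CD47, the signal read by SIRPA on macrophages, was abundant in all human groups. H69 had 203, 218 and 169.7 CPM, and H69M had 246, 209.9 and 233 CPM. These groups overlapped, and the log2 fold change of 0.22 ± 0.08 passed the threshold (adjusted p = 0.0247) but not without H69 replicate 3, H69M replicate 1 or H69M replicate 3 (adjusted p = 0.0735, 0.116 and 0.0655). The PD-L1 low fraction had 220.5, 261 and 224 CPM and the PD-L1 high fraction 189.5, 174.5 and 165.6 CPM. CD47 fell by 0.41 ± 0.08 on the log2 scale in the PD-L1 high fraction (adjusted p = 1.55e-04), the only member that was lower there, and no library overlapped. In H69EZ the direction was opposite, with 43.7 and 52.2 CPM in HLA low and 118 and 129.99 CPM in HLA high libraries. CD47 was higher in the HLA high fraction by 1.37 ± 0.07 (adjusted p = 2.17e-87), and mouse Cd47 was higher in RPP-A by 0.96 ± 0.12 (adjusted p = 1.63e-04), from 89.5, 104 and 115 CPM in RPP to 207.5, 209 and 181 CPM in RPP-A. Without EHK_RPP4 and RPPM3 the mouse value was 0.97.

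PVR, the ligand of TIGIT and CD226, was the only member that was lower in H69M than in H69. H69 had 149.5, 155 and 166 CPM, and H69M had 129, 142 and 131 CPM. The groups did not overlap, and PVR fell by 0.23 ± 0.05 on the log2 scale (adjusted p = 7.74e-04). Across the PD-L1 sort it differed in the other direction, from 81.2, 79.5 and 81.9 CPM in the low fraction to 196, 208 and 198 CPM in the high fraction. PVR was higher in the PD-L1 high fraction by 1.31 ± 0.05 (adjusted p = 1.13e-14), and H69 lay between the fractions. HLA low libraries had 111 and 105 CPM and HLA high libraries 123 and 125 CPM. That log2 fold change of 0.20 ± 0.06 passed the threshold (adjusted p = 0.00313), but not with library totals (0.05, adjusted p = 0.486) nor without either HLA low library (adjusted p = 0.0528 and 0.229). Mouse Pvr was 11.98 CPM in EHK_RPP4 and 3.11 and 2.88 CPM in the other RPP libraries, and 32.4, 34.7 and 40.3 CPM in RPP-A. It was higher in RPP-A by 2.61 ± 0.49 (adjusted p = 0.00155), by 3.62 without EHK_RPP4, and by 3.52 without EHK_RPP4 and RPPM3.

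LGALS9, a secreted and surface lectin, was higher in the MHC class I high group of all 4 pairs. H69 had 4, 4 and 0 reads (0.161, 0.151 and 0 CPM), and H69M had 3.73, 4.13 and 3.33 CPM. The lines did not overlap, and the log2 fold change was 4.82 ± 0.35. The PD-L1 low fraction had 0.709, 0.372 and 1.16 CPM and the PD-L1 high fraction 31.2, 33.5 and 28.6 CPM, a difference of 5.48 ± 0.18. HLA low libraries had 0.711 and 0.812 CPM and HLA high libraries 2.42 and 2.35 CPM, a smaller but called log2 fold change of 1.65 ± 0.22 (adjusted p = 6.23e-14). Mouse Lgals9 had the largest rise of the 5 members tested in mouse, from 1.96, 6.44 and 5.55 CPM in RPP to 220.3, 222 and 289.5 CPM in RPP-A. It was higher by 5.69 ± 0.37 (adjusted p = 3.95e-06), and by 5.24 without EHK_RPP4 and RPPM3. The near copies LGALS9B and LGALS9C had 16, 11 and 8 and 4, 2 and 5 reads in the PD-L1 low fraction, where LGALS9 itself had 16, 8 and 16, so its low level there is uncertain: reads could be split between the copies.

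IDO1, the enzyme that opens the kynurenine route of tryptophan breakdown, had no read in H69. H69M had 2.34, 3.13 and 3.06 CPM, at least 60.5-fold higher. The PD-L1 low fraction had 0.399, 0.418 and 0.795 CPM and the PD-L1 high fraction 36.5, 34.7 and 34.1 CPM. IDO1 was higher in the PD-L1 high fraction by 6.11 ± 0.16 on the log2 scale, with no overlap. HLA low libraries again had no read, and HLA high libraries had 5.51 and 5.03 CPM, at least 165.5-fold higher. Mouse Ido1 was not detectable at this depth: RPP had no read and RPP-A a single read, in RPPM1.

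**Figure D2:**
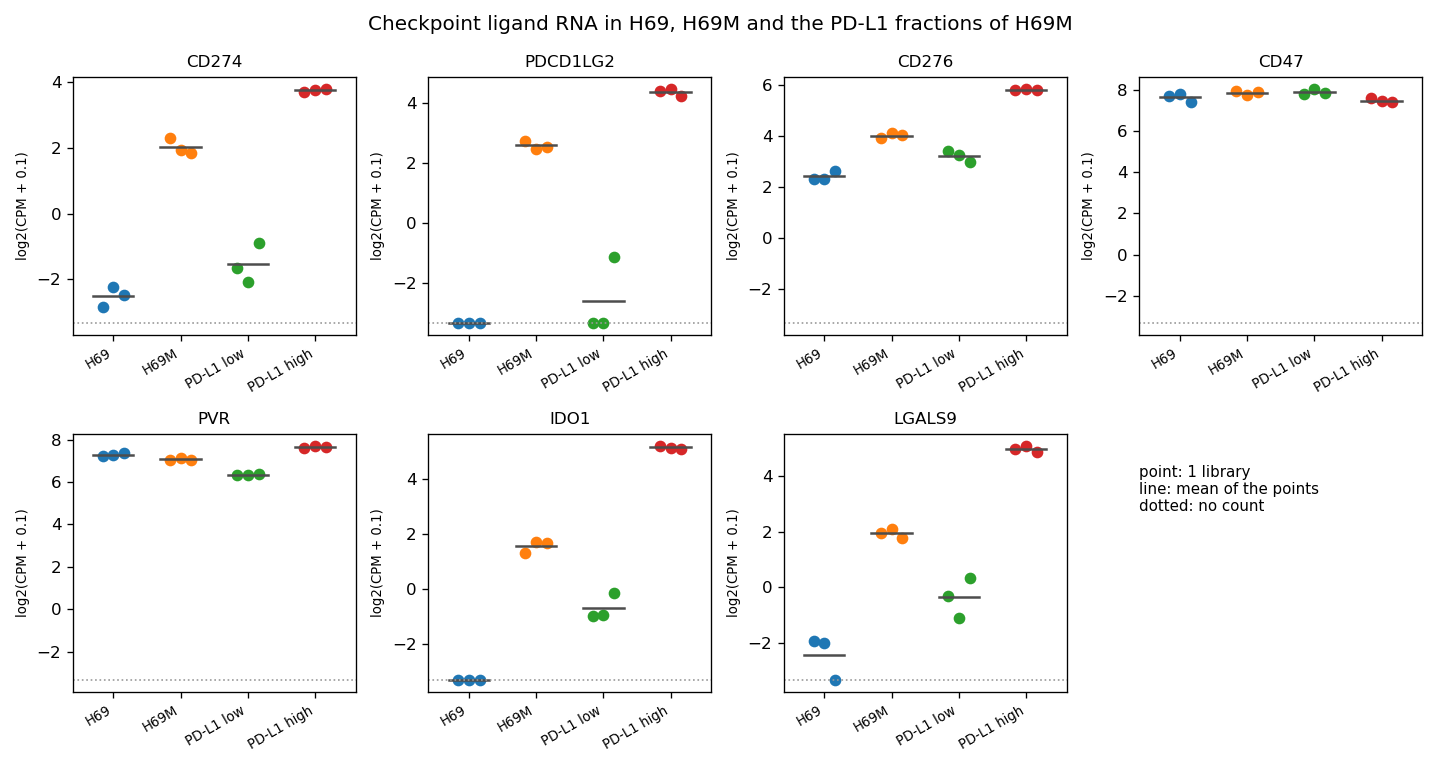
RNA level of each checkpoint gene in the 12 libraries of the H69 table, as log2(CPM + 0.1); each point is 1 library, each line the mean of its points, and the dotted line marks no count. CD274, PDCD1LG2, CD276, IDO1 and LGALS9 have their highest mean in the PD-L1 high fraction and their lowest in H69, whereas CD47 is lowest in the PD-L1 high fraction and PVR in the PD-L1 low fraction.

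**Figure D3:**
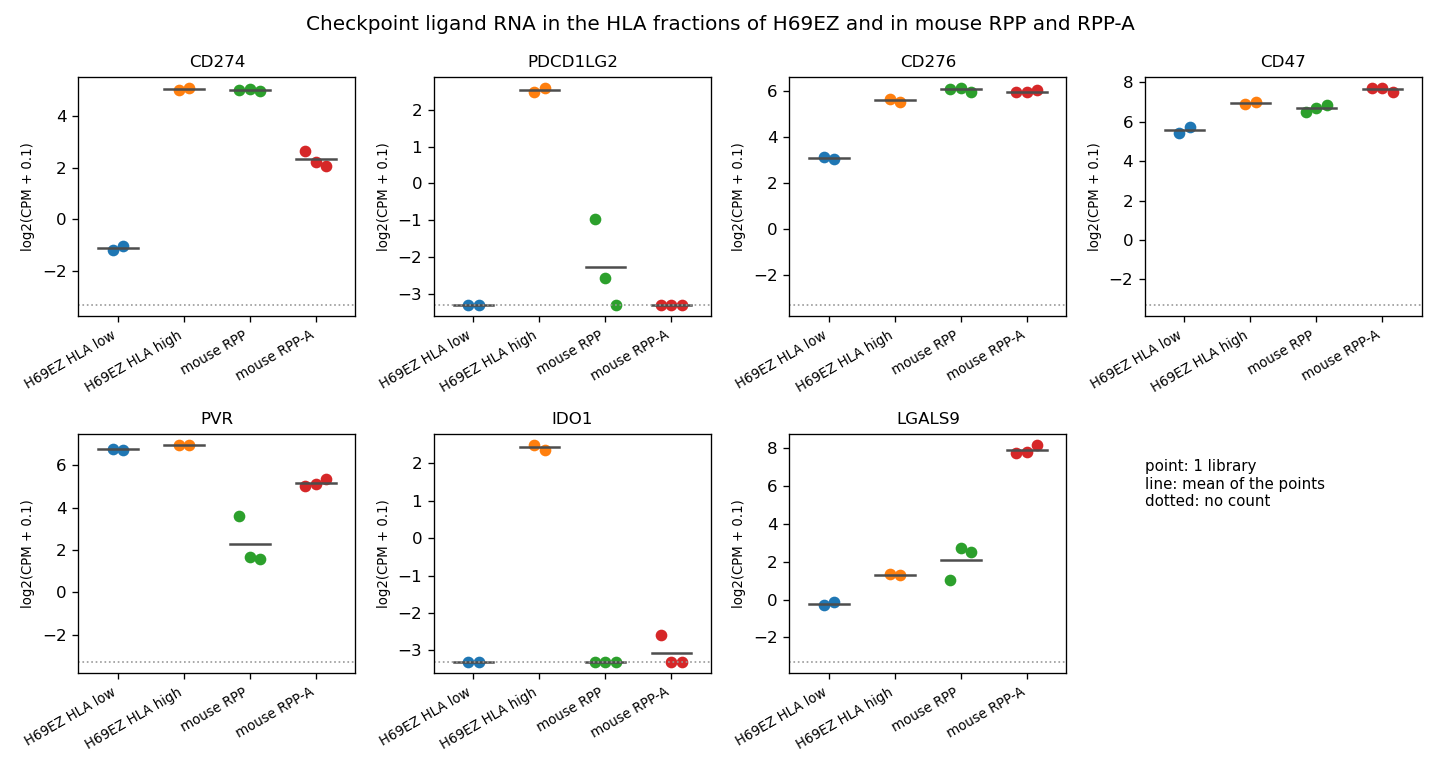
RNA level of each checkpoint gene in the 4 libraries of the H69EZ table and the 6 mouse libraries, as log2(CPM + 0.1), with points, lines and the dotted line for libraries, means and no count. The tables were counted separately, so levels are compared only within H69EZ and within mouse; CD274 is higher in HLA high than in HLA low, at 32.2 and 33.5 CPM, and mouse Cd274 is lower in RPP-A than in RPP.

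Cells sorted as PD-L1 low carry the same MHC class I label as H69, which allows the checkpoint genes to be compared between low groups of related origin. Of the 6 genes without CD274, 4 were higher in the PD-L1 low fraction than in H69, PVR was lower and PDCD1LG2 was not called, where 75.9% of all genes were called. CD276 was higher by 0.88 ± 0.12 (adjusted p = 1.25e-06), from a mean of 5.32 ± 0.707 to 9.39 ± 1.41 CPM (SD, n = 3). LGALS9 was higher by 2.41 ± 0.54 (adjusted p = 4.35e-04), with the uncertainty from its near copies. IDO1 was at least 10.6-fold higher than the empty H69 group. PVR fell by 0.95 ± 0.05 (adjusted p = 4.24e-12), from 157 ± 8.57 to 80.9 ± 1.23 CPM (SD, n = 3), the lowest PVR level in the table. CD47 was higher by 0.25 ± 0.08 (adjusted p = 0.0101), a call lost without PD-L1 low replicate 2 (adjusted p = 0.0830). PDCD1LG2 was at least 1.83-fold higher by counts but was not called (adjusted p = 0.0631), and its 5 reads lay in a single library. It was called without a filter on low counts, with DESeq2, and without PD-L1 low replicate 1 or 2 (adjusted p = 0.0187, 0.0228, 0.0241 and 0.0264). For the sorted gene itself, 5, 3 and 6 reads of CD274 in the PD-L1 low fraction stood against 1, 3 and 1 in H69.

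Against H69, the PD-L1 high fraction had 5 of the 6 genes higher, where 77.6% of all genes were called. PDCD1LG2 was at least 439-fold and IDO1 at least 748-fold higher. LGALS9 was higher by 7.89 ± 0.24, CD276 by 3.45 ± 0.10 (adjusted p = 1.76e-17) and PVR by 0.36 ± 0.05 (adjusted p = 3.55e-06). CD47 was not called at -0.16 ± 0.08 (adjusted p = 0.0857), but was called lower with no filter on low counts, with library totals, without H69 replicate 3 and without PD-L1 high replicate 1 (adjusted p = 0.00682, 0.0408, 0.00271 and 0.0439). These comparisons share the H69 libraries.

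Unsorted H69M was the source of both fractions, and each fraction was compared with it; sorted and unsorted cells also differ in handling, whose part was not tested. In the PD-L1 low fraction 5 of the 6 genes fell below H69M, where 65.6% of all genes were called: PDCD1LG2 by 5.99, IDO1 by 2.49, LGALS9 by 2.41, CD276 by 0.77 and PVR by 0.73 on the log2 scale. Without PD-L1 low replicate 3 the fall of PDCD1LG2 was fitted at -9.95. CD47 did not differ beyond its spread (0.04 ± 0.08, adjusted p = 0.726). Relative to H69M, PD-L1 high cells had 5 genes higher and CD47 lower, where 70.4% of all genes were called. IDO1 was higher by 3.62 ± 0.11 and LGALS9 by 3.07 ± 0.13, whereas PDCD1LG2 and CD276 were each higher by 1.80 and PVR by 0.58. CD47 fell by 0.38 ± 0.08 (adjusted p = 4.60e-04).

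The place of unsorted H69M between the means of its fractions was not the same for each gene. On the linear CPM scale, with the PD-L1 low fraction at 0% and the PD-L1 high fraction at 100%, H69M stood at 28.8% ± 5.61 for CD274 and 28.4% ± 2.92 for PDCD1LG2 (SD, n = 3 H69M libraries). It stood at 14.6% ± 2.38 for CD276, 9.83% ± 1.32 for LGALS9 and 6.67% ± 1.27 for IDO1. The range of PDCD1LG2, 26.0% to 31.6%, did not overlap those of these 3 genes. CD274 was the sorted gene, so its place only describes the sort. PVR stood at 44.3% ± 5.60, and for CD47, whose fractions differ little, the place was poorly set at 9.48% ± 31.2. These places were not tested against each other, and the SD leaves out the spread of the fractions.

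**Figure D4:**
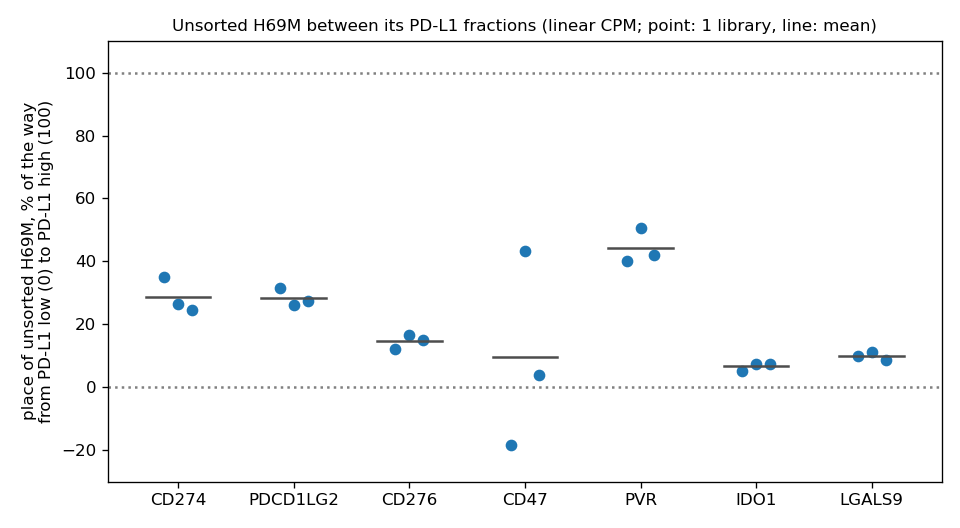
Place of the 3 unsorted H69M libraries between the mean CPM of the PD-L1 low (0%) and PD-L1 high (100%) fractions, for each gene; points are libraries and lines their means. CD274 and PDCD1LG2 lie near 28%, CD276, LGALS9 and IDO1 between 5% and 17%, PVR above 40%, and CD47 spreads from -18.5% to 43.2%.

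The difference between the signed log2 fold changes of the PD-L1 sort and of H69M minus H69 was tested as a contrast in the same fit, where 71.4% of all genes were called and 4 of the 6 checkpoint genes were. CD276 differed more across the sort, by 0.92 ± 0.15 (adjusted p = 1.19e-05). For PVR, which was lower in H69M than in H69 but higher in the PD-L1 high fraction, the signed difference was 1.54 ± 0.08 (adjusted p = 5.04e-13). For CD47 the value was -0.63 ± 0.12 (adjusted p = 8.03e-05). LGALS9 was not called (0.66 ± 0.74, adjusted p = 0.435), nor was PDCD1LG2 (-2.11 ± 1.64, adjusted p = 0.258). IDO1 was called at -2.74 ± 1.20 (adjusted p = 0.0489), but H69 had no reads, so that its size depends on the prior count, and 12 of its alternatives lost the call.

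Ordered by level, CD274, PDCD1LG2, CD276, IDO1 and LGALS9 shared 1 order of means in the H69 table: H69, PD-L1 low, H69M and PD-L1 high. The neighbours H69 and PD-L1 low did not differ beyond the test's threshold for PDCD1LG2. PVR ran from PD-L1 low through H69M and H69 to PD-L1 high, with every neighbouring pair called. CD47 ran from PD-L1 high (176.5 ± 12.1 CPM) through H69 (197 ± 24.8) and H69M (229.7 ± 18.4) to PD-L1 low (235 ± 22.5, SD, n = 3), where neither the lowest nor the highest pair of neighbours was called.

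Levels of different genes are set side by side here per length, as CPM per kilobase of coding sequence in GENCODE v29. The libraries were made by exome capture, and how well each gene was captured is not known, so the order of genes is only approximate. In H69, CD47 was at 202 and PVR at 123 CPM per kilobase, CD276 at 3.28, and CD274 and LGALS9 at 0.0897 and 0.0976, with no reads of PDCD1LG2 or IDO1. In the PD-L1 high fraction CD47 was at 181 and PVR at 157, and the other 5 ran from 34.9 for CD276 through 29.2 for LGALS9, 29.02 for IDO1 and 25.0 for PDCD1LG2 to 15.3 for CD274. The HLA high fraction had another order below CD47 (127) and PVR (97.1): CD274 was at 37.7 and CD276 at 29.9, and PDCD1LG2, IDO1 and LGALS9 were at 7.001, 4.36 and 2.24 CPM per kilobase. The levels were compared as values and not tested between genes.

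Across the 12 libraries of the H69 table, log2 CPM of IDO1 followed that of LGALS9 (Pearson r = 0.989) and CD276 (0.982). CD47 had a negative r with each of the other 6, at -0.77 with PVR. Since 6 of the libraries were sorted on PD-L1, the pattern of CD274 is in part set by the sort; the genes most like it were FBN2 (0.995), LGALS1 (0.995) and AKAP12 (0.994). For PDCD1LG2 they were NT5E (0.990), FBN2 (0.989) and LGALS1 (0.986), and for CD276 SLC2A1, SMS and ITGB1 (each 0.995). IDO1 was most like PCNX, NPC2 and LEPRE1 (0.997, 0.997 and 0.996), LGALS9 like ARHGEF17, NPC2 and PDLIM7 (0.997, 0.993 and 0.989), PVR like CFL1, LRRC8A and ACP2 (0.995, 0.994 and 0.994), and CD47 like RTKN2, KATNAL1 and PAQR3 (0.963, 0.942 and 0.933). These values are descriptions, since libraries of a group share their cells and the 4 groups carry most of the spread.

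The pathway genes around the checkpoint members were followed in lists, whose counts are read against the background: 72.5% of all genes tested were called in H69M minus H69, 78.3% between the PD-L1 fractions, 81.3% between the HLA fractions and 78.2% in RPP-A minus RPP, nearly evenly higher and lower. Some listed genes had few or no reads in a low group, among them C10orf54 (2 reads) in H69 and CD70 (0 CPM) in HLA low. Such genes passed the filter on low counts only through other groups. List counts and medians that include them are therefore descriptions. Of 24 other checkpoint and costimulatory ligands tested, 16 were higher and 3 lower in H69M than in H69. In the PD-L1 sort 18 were higher and 4 lower, in the HLA sort 21 of 27 were higher and 5 lower, and in RPP-A 4 of 12 were higher and 5 lower. LGALS1, a galectin that can kill activated T cells, rose in all 4 pairs, by 6.25 ± 0.11, 6.32 ± 0.09, 8.25 ± 0.11 and 6.26 ± 0.99 on the log2 scale. NT5E (CD73), which makes immunosuppressive adenosine, rose from 2 reads to a mean of 262 CPM in HLA high, a count ratio of 12187-fold with an interval of 3373 to 100640, whereas mouse Nt5e fell by 6.07 ± 0.12 in RPP-A, from 223 to 3.30 CPM. HLA-G rose in the PD-L1 high fraction from 3 reads to 11.1 CPM, a ratio of 211-fold (interval 71.8 to 1025), with some doubt because class I genes are alike in sequence. CD24, a further signal against phagocytosis, fell by 0.75 ± 0.06 in H69M and by 1.39 ± 0.06 in the PD-L1 high fraction.

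Of 32 genes of the interferon gamma, JAK-STAT and IRF route to CD274 and of its regulators, 17 were higher and 9 lower in H69M, 26 and 3 in the PD-L1 sort, 25 and 5 in the HLA sort, and 25 and 5 in RPP-A. Of all genes tested 35.9%, 39.0%, 41.1% and 37.6% were called higher in these pairs. Over these 32 the median log2 fold change was 0.48, 0.93, 0.97 and 1.69, against -0.01, 0.00, 0.00 and -0.04 over all genes. These counts and medians are descriptions, since they include genes such as YAP1 and EGFR, which had no reads in H69 and passed the filter through other groups. Mouse Cd274 was lower in RPP-A, where 25 of these genes were higher and 5 lower, and a link between them was not tested. Irf1 was higher there by 2.30 ± 0.15 (adjusted p = 4.45e-06), a gene picked out after its values were seen. Human IRF1, picked out in the same way, had a log2 fold change of -0.32 ± 0.09 in H69M minus H69 (adjusted p = 0.00270 in edgeR's quasi-likelihood test). Its values in the PD-L1 and HLA sorts are not given here, and the relation of IRF1 to CD274 was not tested. YAP1, a Hippo pathway effector, was at least 999.9-fold higher in H69M than in H69, where it had no read, and mouse Yap1 was higher by 5.18 ± 0.53. CMTM4, which protects PD-L1 from degradation, fell by 0.84 ± 0.06 in the PD-L1 high fraction, by 0.92 ± 0.07 in HLA high and by 1.18 ± 0.10 in RPP-A. In H69M minus H69 its log2 fold change was -0.31 ± 0.06, whereas CMTM6 of the same list was higher there by 1.30 ± 0.10.

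Other genes of the kynurenine pathway went both ways in the human pairs: 6 of 11 were higher and 3 lower in H69M, 3 and 5 in the PD-L1 sort, 7 and 6 of 13 in the HLA sort, and 6 and 0 of 7 in RPP-A. Against 72.5%, 78.3%, 81.3% and 78.2% of all genes called, the counts in H69M and the PD-L1 sort were near the background. AHR, the receptor for kynurenine, rose in each pair, by 3.73 ± 0.09, 2.70 ± 0.06, 3.75 ± 0.08 and 4.07 ± 0.45. SLC3A2, part of an amino acid transporter, fell by 1.20 ± 0.05 in H69M and by 1.28 ± 0.06 in HLA high, whereas mouse Slc3a2 rose by 1.38 ± 0.11 in RPP-A. Around CD47, 4 of 10 genes were higher and 4 lower in H69M, 8 and 0 in the PD-L1 sort, 9 and 0 of 9 in the HLA sort, and 7 and 3 of 10 in RPP-A, where 72.5%, 78.3%, 81.3% and 78.2% of all genes were called, so that the number called in H69M and the PD-L1 sort was near the background. THBS1, the secreted ligand of CD47, rose by 3.84 ± 0.10 in H69M, 5.78 ± 0.10 in the PD-L1 high fraction and 6.23 ± 0.31 in RPP-A. SIRPA, the receptor of CD47, fell by 1.49 ± 0.07 in H69M, from 41.5 to 14.8 CPM, and was 1.88 CPM in the PD-L1 low and 36.0 CPM in the PD-L1 high fraction, a rise of 4.24 ± 0.10.

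On the axis of PVR and the nectins, 2 of 6 genes were higher and 1 lower in H69M, 3 and 2 in the PD-L1 sort, 4 and 2 in the HLA sort, and 1 and 3 of 5 in RPP-A, against 72.5%, 78.3%, 81.3% and 78.2% of all genes called. PVRL2, the other ligand of TIGIT and CD226, rose by 1.40 ± 0.07 in H69M, where PVR fell, and by 1.65 ± 0.07, 0.57 ± 0.07 and 2.67 ± 0.19 in the other 3 pairs. Among other galectins, 3 of 5 were higher and 1 lower in H69M, 3 and 2 in the PD-L1 sort, 5 and 1 of 6 in the HLA sort, and 4 and 1 of 5 in RPP-A, against the same shares of all genes; so few genes set nothing apart from that background. Receptors of the ligands on leukocytes were mostly too low to test, with 3 of 11 tested in each human table and 2 in mouse. Of these, 0 were higher and 2 lower in H69M, 3 and 0 in each sort, and 1 and 0 in RPP-A, too few to read against the 72.5% to 81.3% of all genes called.

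**Figure D5:**
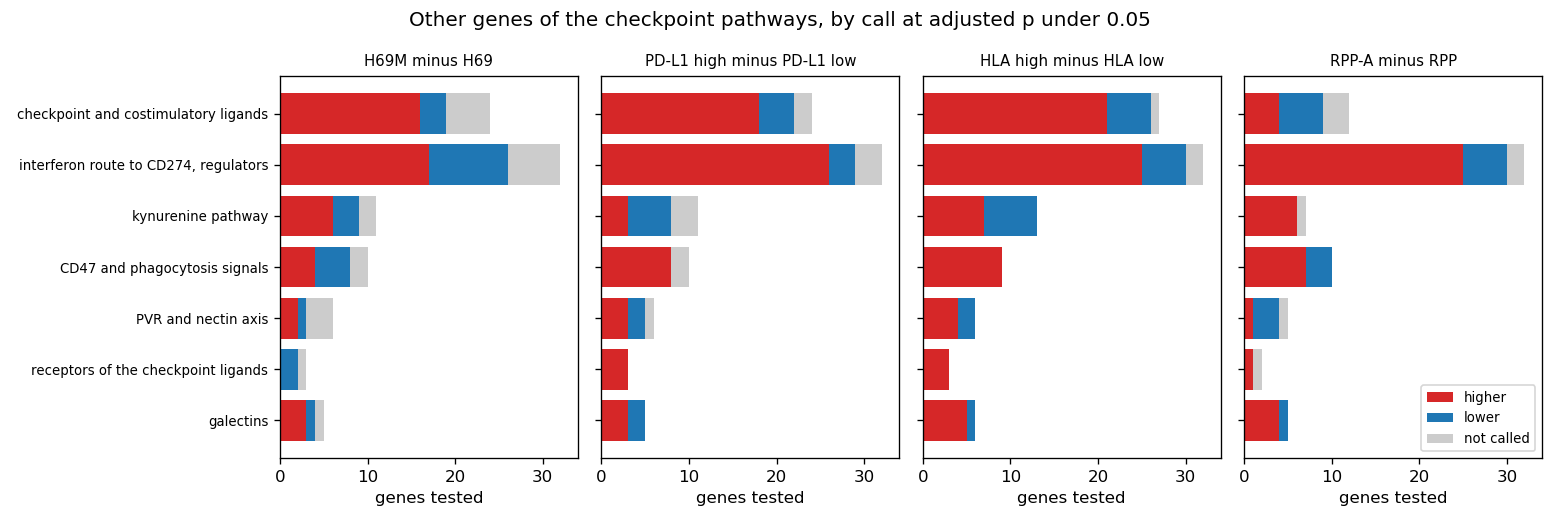
Number of genes tested in each pathway list that were called higher, called lower or not called in the 4 comparisons. The list on the interferon route to CD274 has 26, 25 and 25 of its 32 genes higher in the PD-L1 sort, the HLA sort and the mouse pair, where 39.0%, 41.1% and 37.6% of all genes were higher, and 17 higher and 9 lower in H69M minus H69. The counts are descriptions, since some listed genes were nearly empty in a low group.

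Markers of other cell types moved with several of these results. The 10 fibroblast markers, among them collagen genes, summed to 597 to 623 CPM in H69, 3090 to 3333 in H69M, 583 to 688 in the PD-L1 low and 11539 to 11834 in the PD-L1 high fraction. The sums of H69 and PD-L1 low were close, but single markers differed. Against H69, 9 of the 10 were called higher in PD-L1 low and 1 lower, where 75.9% of all genes were called. COL1A1 was at 1.59 CPM in H69 and 49.5 in PD-L1 low, and POSTN at 453 and 319 CPM. The 10 markers summed to 392 to 395 and 16786 to 18173 CPM in HLA low and high, and to 91.2 to 480 and 27106 to 35784 CPM in RPP and RPP-A. PDGFRB was at 0 in H69, COL3A1 in HLA low and Lum in RPP, and none was at 0 in the other groups. Their part in the results was not tested. The 15 leukocyte markers summed to 7.14 to 7.99, 7.99 to 8.26, 9.62 to 10.6 and 13.03 to 13.08 CPM in the 4 groups of the H69 table and to 7.73 to 8.16 and 8.16 to 9.03 CPM in HLA low and high. CD3E, CD3D, MS4A1 and NKG7, which define T, B and natural killer cells, were at 0 in every human group. Other leukocyte markers had reads. From PD-L1 low to high, CD68 went from 0.409 to 6.36 CPM, CSF1R from 0.195 to 2.61 and LAPTM5 from 7.15 to 1.58. From HLA low to high, PTPRC went from 0.0412 to 0.676 CPM and CD8A from 0.577 to 0.0591. Of 5 leukocyte markers tested in the PD-L1 sort 3 were higher and 1 lower. In the HLA sort 3 of 8 were higher and 3 lower. Of all genes 78.3% and 81.3% were called in these sorts. In mouse, where 14 are in the table, the sum was 3.51 to 3.99 CPM in RPP and 35.0 to 38.9 in RPP-A, with Cd3e, Cd3d, Ms4a1 and Nkg7 at 0 in both. Most of that sum in RPP-A was Cd14, at 0.307 CPM in RPP and 32.2 CPM in RPP-A, whereas Ptprc was at 0 in RPP-A, Csf1r was at 0.0815 and 2.43 CPM, and Laptm5 at 0.562 and 0.0816 CPM. The 6 endothelial markers summed to 46.9 to 53.2, 21.6 to 23.5, 12.3 to 13.2 and 16.1 to 18.8 CPM in the H69 table, to 1.93 to 2.02 and 228 to 238 CPM in HLA low and high (5 in the table), and to 40.1 to 48.7 and 3.68 to 5.39 CPM in RPP and RPP-A. In HLA high the sum was nearly all TEK (0.0511 to 231 CPM), with CDH5, VWF and KDR at 0.382, 0.772 and 0.651 CPM and CLDN5 at 1.77 in HLA low and 0.354 CPM in HLA high.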

How the data were processed

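Per the labels' protocols, RNA was isolated with a column kit and sequenced after exome capture. The authors deposited raw read counts by gene symbol in 3 tables, described in the report. STAR 2.6.1 and the builds hg19 and mm10 appear per the submitters' processing notes, with no roles given. Not given in the sources used here are the counting program, the gene annotation and whether strand was used. All 22 libraries were used, and 0 columns were left without a group. Mouse columns were assigned by group only, with those named RPPM taken as RPP-A.

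Tables were fitted separately with edgeR 4.0.16 under R 4.3.3 (quasi-likelihood F-test, two-sided, TMM, 1 coefficient per group, filterByExpr with a minimum count of 10). P-values were adjusted by Benjamini-Hochberg over all genes tested, at 0.05. The biological coefficient of variation common to all genes was 0.0540, 0.0450 and 0.157, with 8, 2 and 4 residual degrees of freedom; in the H69EZ table the spread was pooled across genes. The SE was the log2 fold change over the square root of F. Depth limits low genes: a group at 0 was set at a floor of 3 counts over the group, and intervals (95%, exact binomial) cover counting error only, since reads carry no molecular identifiers. The procedure was tested on simulated data.

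The 7 members and all lists were chosen with earlier results of these data known. Text names the members, some of the largest called rises and falls of each list with a mean of at least 1 CPM, and the 3 genes most correlated with each member among genes at or above the median level. Named outside that rule were IRF1 with mouse Irf1, CMTM6, CMTM4 in H69M minus H69, the near copies of LGALS9 and markers of other cell types. Promoter letters came from RefSeq (GRCh38.p14) and coding lengths from GENCODE v29, neither of the build of the counts. Alternatives were DESeq2 1.42.0 (its size factors and its test), limma 3.58.1 voom, library totals, other filters, a 2-fold minimum, the replicate block and leaving out libraries.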

Additional observations from a re-analysis of the deposited data

Results flagged for a closer look

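In the contrast of the PD-L1 sort with H69M minus H69, 4 of the 6 checkpoint genes were called. That number is near the background, since 71.4% of all genes were called there. The values were 0.92 for CD276, -0.63 for CD47, 1.54 for PVR and -2.74 for IDO1 on the log2 scale. The pairs share H69M as parent of the fractions but no library. The value for IDO1 depends on the prior count, because H69 had no reads of it, and its call was lost under several alternatives.

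CD274, CD47 and PVR moved one way in every library of a pair and the opposite way in another pair, and those differences were not tested across tables. CD274 was 5.57 in H69M minus H69 and 6.49 in the HLA sort, but Cd274 was -2.67 in RPP-A minus RPP. CD47 was 1.37 between HLA fractions and, as Cd47, 0.96 in mouse, but -0.41 across the PD-L1 sort. PVR was -0.23 in H69M minus H69 but 1.31 across the PD-L1 sort, 0.20 between HLA fractions and, as Pvr, 2.61 in mouse. No test for single outlying values was run on groups of 2 or 3 libraries.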

How the results depend on the processing

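Over the alternatives, 781 of 826 values of single checkpoint genes kept their direction and side of the threshold, 9 gained a call, 32 lost one and 4 reversed. Reversed were CD47 in PD-L1 low minus H69M (-0.028 without H69M replicate 2 and -0.047 without PD-L1 low replicate 2, with a range from -0.047 to 0.088 over left-out libraries) and PDCD1LG2 in the contrast of the sort with H69M minus H69 (0.63 with limma-voom and 1.80 without PD-L1 low replicate 3, range -2.83 to 1.80); neither was called in any of these. The cause was not tested. With a 2-fold minimum, 2 rather than 5 checkpoint genes were called in PD-L1 low minus H69 and 3 rather than 5 in PD-L1 low minus H69M. The same minimum left 2787 of 11196 genes called in H69M minus H69, 4185 of 12100 between PD-L1 fractions, 4277 of 12055 between HLA fractions and 6020 of 10975 in mouse, and 2850 of 11723, 4117 of 11986, 1675 of 10134 and 2513 of 10873 in PD-L1 low and high minus H69 and minus H69M. Library totals in place of TMM moved the split of mouse calls from 48.1% higher and 51.9% lower to 35.2% and 64.8%, and the median of all genes to -0.14 between PD-L1 fractions, -0.15 between HLA fractions and 0.12 in PD-L1 low minus H69. Whether the labels' replicate numbers pair the libraries is not settled. In no comparison of 3 pairs did every same-numbered pair correlate above 0.1. In PD-L1 high minus H69M, however, each same-numbered pair (0.076, 0.067 and 0.032) correlated more than the other-numbered pairs (-0.003 at most). With the replicate block, IDO1 lost its call in the contrast of the sort with H69M minus H69 (-2.74, adjusted p = 0.0641), and no other checkpoint call changed; mouse columns carry no numbers, so that no paired fit was possible there. Over all alternatives that contrast gave IDO1 adjusted p-values up to 0.259 (limma-voom). Without PD-L1 low replicate 3, PDCD1LG2 had no reads in PD-L1 low or H69, so PD-L1 low minus H69 gave no value for it. Depth limits CD274, PDCD1LG2, IDO1 and LGALS9 in the low groups, where they had 0 to 17 reads a library (LGALS9 up to 36).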
